A study of Rattus norvegicus with 9 samples.

Results

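A set of 10 genes of stretch sensing and of the YAP pathway were followed across fetal rat lungs: the ion channels Piezo1, Piezo2 and Trpv4, the transcriptional regulators Yap1, Wwtr1 and Tead1, and the YAP target genes Ccn1, Ccn2, Ankrd1 and Amotl2. They were chosen by name, with earlier results of these data known. Each was looked up by NCBI Gene ID among the 17465 genes of the deposited table. Their IDs were 361430 (Piezo1), 66026 (Trpv4), 363014 (Yap1), 295062 (Wwtr1), 361630 (Tead1), 83476 (Ccn1), 64032 (Ccn2), 27064 (Ankrd1) and 65157 (Amotl2). The RNA level of Piezo2 was not analysed here, only its promoter sequence, and the other 9 members all passed the filter on low counts.

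Total RNA of 9 Sprague-Dawley rat fetal lungs was sequenced after ribosomal RNA depletion. The groups were 3 control lungs without treatment, 3 hypoplastic lungs without treatment, and 3 hypoplastic lungs that received AFSC-EV, which are extracellular vesicles of amniotic fluid stem cells (called treated lungs here). Oligohydramnios, too little amniotic fluid, is named in the series title as the setting of the underdeveloped (hypoplastic) lungs. The sources used here do not give fetal age, the way the fluid was reduced, vesicle dose and route, or litter. Whether each library came from a lung of a different fetus is taken from the numbering alone, so p-values measure the spread between these samples. Library totals ran from 56922779 to 88243188 estimated counts. The lung transcription factor Nkx2-1 was at 264.5 CPM or more in every library. In whole lungs, fewer cells of a type and less RNA per cell cannot be told apart.

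Piezo1 and Piezo2 form mechanically gated cation channels, and Trpv4 is a calcium-permeable channel that responds to cell swelling and other stimuli. YAP (gene Yap1) and TAZ (gene Wwtr1) are co-activators that the Hippo kinases keep in the cytoplasm. In stretched or spread cells they enter the nucleus and bind TEAD factors such as that of Tead1, which recognise the DNA core GGAATG. Ccn1, Ccn2, Ankrd1 and Amotl2 are widely used readouts of that binding. The pathway matters in the fetal lung because breathing movements and the fluid that fills the airways distend the tissue, and a lack of amniotic fluid reduces that distension. YAP and TAZ are controlled largely by phosphorylation and location, which RNA levels do not show.

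RefSeq promoter sequences (assembly GRCr8, used for sequence only) were found for 7 of the 10 members, all but Piezo1, Tead1 and Ankrd1. The 250 bases before each gene start were searched on both strands for 4 motifs. These were the TEAD core GGAATG, the TATA box TATAAA, the AP-1 motif TGANTCA (N is any base) and the CArG box bound by SRF, and a TATA box can lie inside a CArG box. The TEAD core was present in 4 of the 7, namely Ccn2, Ccn1, Amotl2 and Yap1. Of 27457 rat promoters of the same length, 11.9% held it. Ccn2 held 3 copies, all on the gene's strand, at 166 to 161, 101 to 96 and 92 to 87 bases before the start, and 0.0983% of promoters held 3 or more. The single copies in Ccn1 (113 to 108 bases before the start) and Amotl2 (76 to 71) read CATTCC, the core on the opposite strand, and that of Yap1 lay 116 to 111 bases before the start. A TATA box stood 34 to 29 bases before the start of Ccn1 and 31 to 26 before that of Ccn2, against 13.2% of all promoters with a match anywhere in the window. The AP-1 motif, in 6.41% of all promoters, and the CArG box, in 1.49%, had 0 matches in the 7 windows. A match of letters is a description and not a binding site.

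The 180 bases before the start are shown for the 4 genes with a TEAD core, because Ccn1 and Ccn2 had the largest differences from control among the members and Amotl2 and Yap1 share the core without such a difference. Each is written 5′ to 3′ on the gene's strand, with the TEAD core in capitals (GGAATG, or CATTCC where it lies on the other strand).
Ccn2 chr1:22624615-22624794, minus strand: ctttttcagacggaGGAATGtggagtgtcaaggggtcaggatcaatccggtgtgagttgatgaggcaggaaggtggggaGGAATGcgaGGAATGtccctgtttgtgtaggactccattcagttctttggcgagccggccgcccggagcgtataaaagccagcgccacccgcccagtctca
Ccn1 chr2:237225690-237225869, minus strand: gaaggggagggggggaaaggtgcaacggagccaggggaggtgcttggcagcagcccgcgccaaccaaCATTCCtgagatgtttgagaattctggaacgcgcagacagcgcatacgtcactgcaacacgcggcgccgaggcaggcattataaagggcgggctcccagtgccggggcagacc
Amotl2 chr8:112182446-112182625, plus strand: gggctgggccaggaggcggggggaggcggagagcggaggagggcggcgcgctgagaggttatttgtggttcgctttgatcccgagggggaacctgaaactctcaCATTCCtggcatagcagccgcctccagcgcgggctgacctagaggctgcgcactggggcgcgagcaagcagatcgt
Yap1 chr8:13451438-13451617, minus strand: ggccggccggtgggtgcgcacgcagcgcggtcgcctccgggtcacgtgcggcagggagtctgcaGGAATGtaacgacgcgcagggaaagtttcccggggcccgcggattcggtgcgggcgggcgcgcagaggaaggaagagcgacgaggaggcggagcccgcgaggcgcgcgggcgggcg

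**Figure D1:**
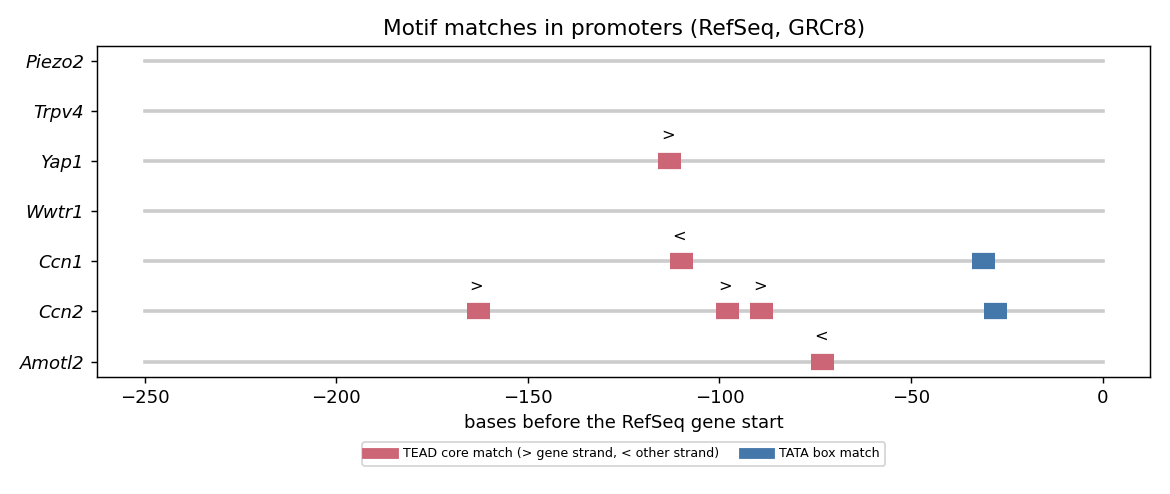
Motif matches in the promoters of the 7 members with a RefSeq entry, by bases before the gene start; red blocks are TEAD cores (> and < give the strand) and blue blocks TATA boxes. Ccn2 shows 3 TEAD cores, and Ccn1, Amotl2 and Yap1 show 1 each.

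Levels are given as CPM, which are counts scaled to a common library size with TMM factors, and are compared only within a gene, since gene length was not corrected for. Differences are log2 fold changes from edgeR's quasi-likelihood test over 12966 genes, called at a Benjamini-Hochberg adjusted p under 0.05. The median log2 change of the members was 0.0028 in hypoplastic against control lungs, 0.03 in treated against hypoplastic lungs and -0.06 in treated against control lungs. The medians of all genes tested were 0.01, -0.01 and 0.0028. Ccn1, Ccn2 and Ankrd1 lay farthest from 0, at 2.15, 2.01 and 1.88 times their control levels in hypoplastic lungs, and the Ankrd1 libraries overlapped.

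None of the 9 members passed edgeR's threshold in any of the 3 comparisons. In hypoplastic against control lungs edgeR called 0.00771% of all genes. DESeq2 called 1 member there, Ccn1, against 1.56% of all genes. Limma voom called 0, and 3 members had an unadjusted edgeR p under 0.05, against 12.4% of all genes. Of these, Ccn1 and Ccn2 were higher (6.67% of all genes) and Trpv4 lower (5.69%). The library values of 3 members did not overlap between the groups, against 16.7% of all genes: Ccn1 and Ccn2 were higher (7.68% of all genes) and Yap1 lower (9.05%). The log2 change was above 0 in 5 of the 9 members, against 51.9% of all genes. In treated against hypoplastic lungs edgeR called 0% of genes, DESeq2 called 0 members against 0.132% of genes, and limma voom called 0. Ankrd1 was the 1 member with an unadjusted edgeR p under 0.05, against 5.56% of genes in both directions, 3.56% downwards as for Ankrd1 and 2% upwards. Trpv4 and Yap1 did not overlap, against 9.81% of genes in both directions, 5.07% upwards as for these 2 and 4.74% downwards. The log2 change was above 0 in 5 members, against 48.1% of genes. In treated against control lungs edgeR called 0% of genes and 0 members, limma voom called 0, and DESeq2 called Ccn2, against 0.108% of genes. Ccn1 and Ccn2 had an unadjusted edgeR p under 0.05, against 4.17% of genes in both directions, 1.67% upwards as for these 2 and 2.5% downwards. Ccn2 did not overlap, against 9.39% of genes in both directions, 4.37% upwards as for Ccn2 and 5.02% downwards. The log2 change was above 0 in 4 members, against 50.6% of genes. The comparisons share libraries, so their values are not independent of each other.

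**Figure D2:**
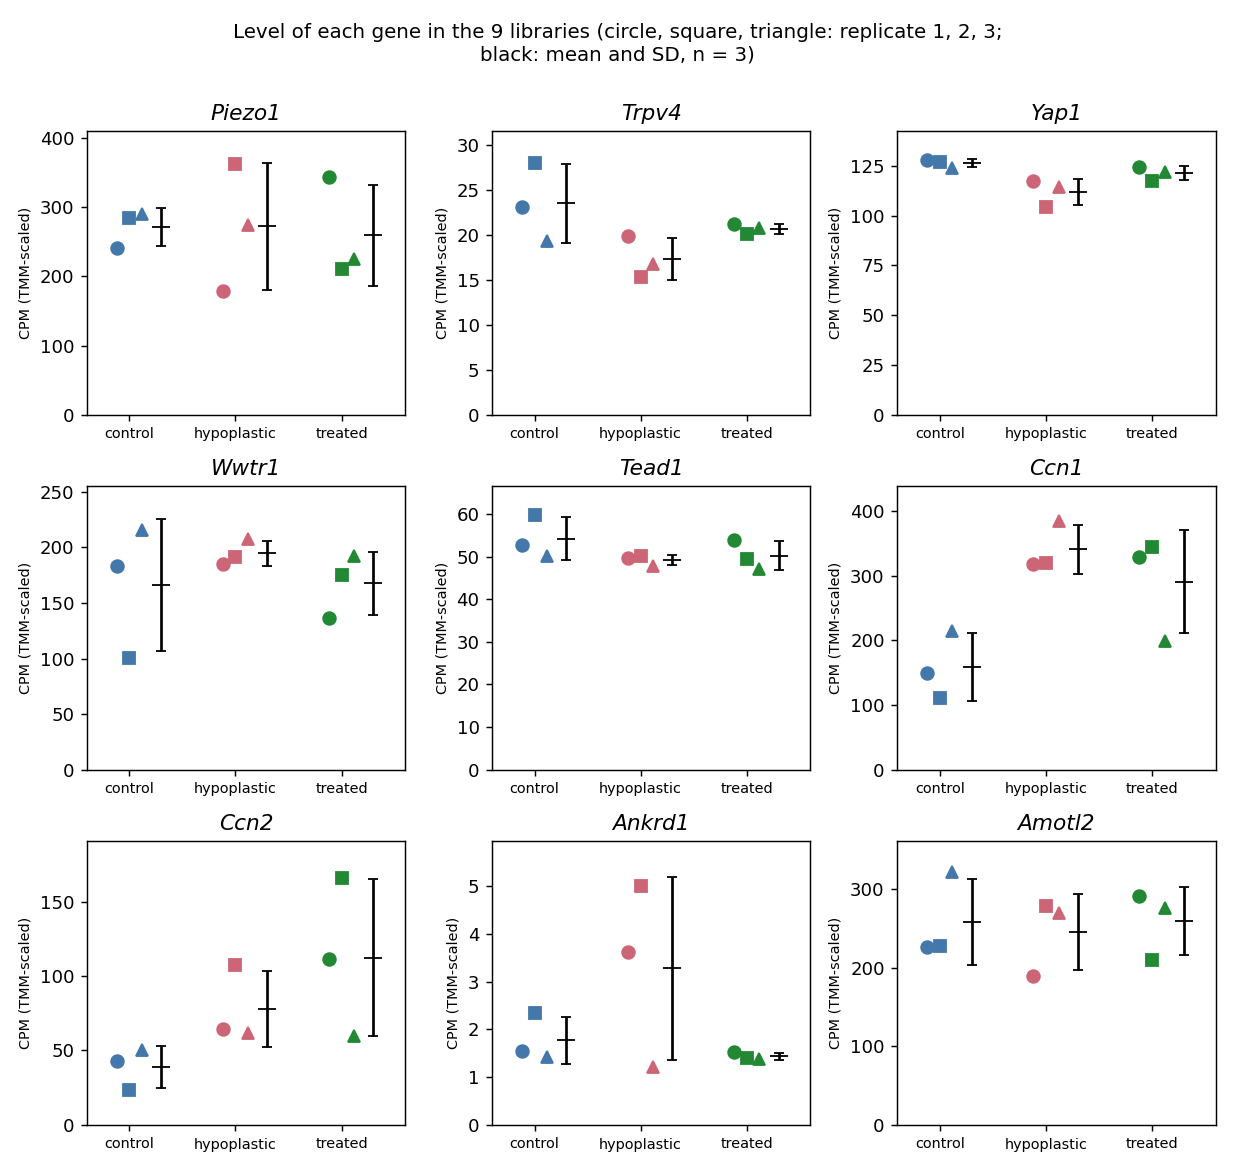
CPM of the 9 members in each library by group, with the group mean and SD (n = 3) in black and the replicate number by point shape. Ccn1 and Ccn2 lie higher in all 3 hypoplastic libraries than in all 3 control libraries, and Yap1 lies between 104.7 and 128.3 CPM throughout.

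Piezo1, a stretch-gated channel of vessels and many other tissues, had nearly equal means in the 3 groups. It was at 240.8, 285.3 and 289.9 CPM in control libraries 1 to 3, at 179.6, 363.0 and 274.9 CPM in hypoplastic libraries, and at 343.4, 210.4 and 225.0 CPM in treated libraries. The hypoplastic libraries held both the lowest and the highest of the 9 values, so the groups overlapped fully. The log2 change in hypoplastic against control lungs was 0.0028 (SE 0.255, 95% interval -0.57 to 0.57, edgeR adjusted p 0.997). Treated lungs differed by -0.07 from either group on the log2 scale, with SE 0.255 in both cases.

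Trpv4 was at 23.1, 28.1 and 19.4 CPM in control libraries, 19.9, 15.3 and 16.8 CPM in hypoplastic libraries, and 21.2, 20.1 and 20.8 CPM in treated libraries. The control and hypoplastic libraries overlapped at 1 point, and each treated library was above each hypoplastic library. Its log2 change in hypoplastic against control lungs was -0.44 (SE 0.156, 95% interval -0.79 to -0.09, edgeR adjusted p 0.344). Without control library 2, where Trpv4 was highest, that value was -0.30. The treated lungs stood between the other groups in mean, with a log2 difference of 0.26 (SE 0.156, edgeR adjusted p 0.921) from hypoplastic and -0.18 (SE 0.155, edgeR adjusted p 0.998) from control lungs. Without control library 2 the latter was -0.0373.

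Yap1, which encodes the co-activator YAP, varied little between control libraries, at 128.3, 126.8 and 124.2 CPM. The hypoplastic libraries were at 117.3, 104.7 and 114.4 CPM and the treated libraries at 124.7, 117.6 and 121.9 CPM. Each hypoplastic library was below each control and each treated library, while treated and control lungs overlapped. The difference was small, with a log2 change of -0.17 in hypoplastic against control lungs (SE 0.0834, 95% interval -0.36 to 0.01, edgeR adjusted p 0.429). It was 0.11 (SE 0.0834, edgeR adjusted p 0.940) in treated against hypoplastic lungs (0.0677 without hypoplastic library 2), and in treated against control lungs -0.06 (SE 0.0834, 95% interval -0.25 to 0.13). The summed level of 8 lung epithelial markers was likewise lower in each hypoplastic library, at 2678 to 3195 CPM, than in each control library (3536 to 5551 CPM) and each treated library (3256 to 3966 CPM). The surfactant genes Sftpb and Sftpc differed most in CPM from control, with means of 1426 and 823 CPM in control and 799 and 408 CPM in hypoplastic lungs. Nkx2-1 and Cdh1 were also lower without overlap. Sftpa1, Ager, Epcam and Foxa2 overlapped, and Foxa2 was slightly higher in mean. In treated against hypoplastic lungs, Nkx2-1 and Sftpc were higher without overlap. The other markers overlapped there, with Sftpb at a log2 change of 0.14 (SE 0.243) and Foxa2 slightly lower in treated lungs in mean. The part of these markers in the values of Yap1 and Trpv4 was not tested.

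Wwtr1, the gene of the YAP paralog TAZ, did not follow Yap1. Control libraries 1 to 3 were at 183.1, 100.7 and 215.6 CPM, hypoplastic libraries at 185.4, 191.8 and 207.3 CPM, and treated libraries at 136.4, 175.0 and 192.0 CPM. Control library 2 was lowest of all 9, and the groups overlapped. The log2 change in hypoplastic against control lungs was 0.23 (SE 0.241, 95% interval -0.31 to 0.77, edgeR adjusted p 0.734), and -0.0341 without control library 2. It was -0.22 (SE 0.241) in treated against hypoplastic lungs and in treated against control lungs 0.01 (SE 0.241).

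Tead1, a DNA-binding partner of both co-activators, was at 52.7, 59.8 and 50.1 CPM in control libraries, 49.6, 50.1 and 47.8 CPM in hypoplastic libraries and 54.0, 49.5 and 47.1 CPM in treated libraries. The groups overlapped, and the highest value was again that of control library 2. Its log2 changes were -0.14 (SE 0.101, 95% interval -0.37 to 0.09) in hypoplastic against control, 0.03 (SE 0.101) in treated against hypoplastic and -0.11 (SE 0.101) in treated against control lungs. The edgeR adjusted p was 0.592 or higher in all 3.

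Ccn1 encodes a secreted matrix-associated protein that YAP, SRF and growth factors induce within minutes to hours. It was at 148.9, 111.6 and 214.9 CPM in control libraries, 318.5, 319.8 and 384.8 CPM in hypoplastic libraries, and 328.9, 344.5 and 199.2 CPM in treated libraries. All 3 hypoplastic libraries and treated libraries 1 and 2 were above every control library, and treated library 3 was within the control range. The means were 158.4 CPM ± 52.3 (SD, n = 3) in control, 341.0 CPM ± 37.9 (SD, n = 3) in hypoplastic and 290.9 CPM ± 79.8 (SD, n = 3) in treated lungs. The log2 change in hypoplastic against control lungs was 1.11 (SE 0.259, 95% interval 0.53 to 1.69), with an unadjusted p of 0.0018, rank 62 of 12966, and an edgeR adjusted p of 0.317. DESeq2 gave an adjusted p of 0.00597 and limma voom 0.448. Leaving out control library 2 gave 0.91 and leaving out control library 3 gave 1.39, and the adjusted p ran from 0.00597 to 0.762 over all alternatives. In treated against control lungs it was 0.88 (SE 0.258, edgeR adjusted p 0.998) and in treated against hypoplastic lungs -0.23 (SE 0.256, 95% interval -0.80 to 0.34, edgeR adjusted p 0.948). Leaving out treated library 3 gave -0.0172 for the latter, and leaving out treated library 2 gave -0.37.

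Ccn2 encodes connective tissue growth factor, a secreted protein linked to matrix production and alveolar development. It was at 43.1, 23.4 and 50.04 CPM in control libraries, 64.5, 107.5 and 61.8 CPM in hypoplastic libraries, and 111.1, 166.0 and 60.0 CPM in treated libraries. Every library of both hypoplastic groups was above every control library. Treated and untreated hypoplastic lungs overlapped, with the lowest and the highest value of the 6 both in treated lungs. The log2 change was 1.004 in hypoplastic against control lungs (SE 0.390, 95% interval 0.13 to 1.88, edgeR adjusted p 0.366) and 1.53 in treated against control lungs (SE 0.394, 95% interval 0.65 to 2.42, edgeR adjusted p 0.998). DESeq2 gave an adjusted p of 0.153 for the first and 0.0360 for the second, and the adjusted p of the second over all alternatives ran from 0.0360 to 1. The change between treated and hypoplastic lungs was 0.53 (SE 0.386, 95% interval -0.34 to 1.39, edgeR adjusted p 0.940), and 0.14 without treated library 2.

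Levels of Xist, Ddx3y and Eif2s3y, genes that differ between the sexes, marked control library 3, hypoplastic libraries 1 and 2 and treated libraries 1 and 2 as female. Control library 3 had the highest Ccn1 and Ccn2 of its group, and treated library 3, a male, the lowest of its group, while hypoplastic library 3, also male, had the highest Ccn1 and the lowest Ccn2 of its group. With sex in the model the log2 changes of Ccn1 were 1.04 in hypoplastic and 0.75 in treated against control lungs, and those of Ccn2 were 0.77 and 1.23.

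**Figure D3:**
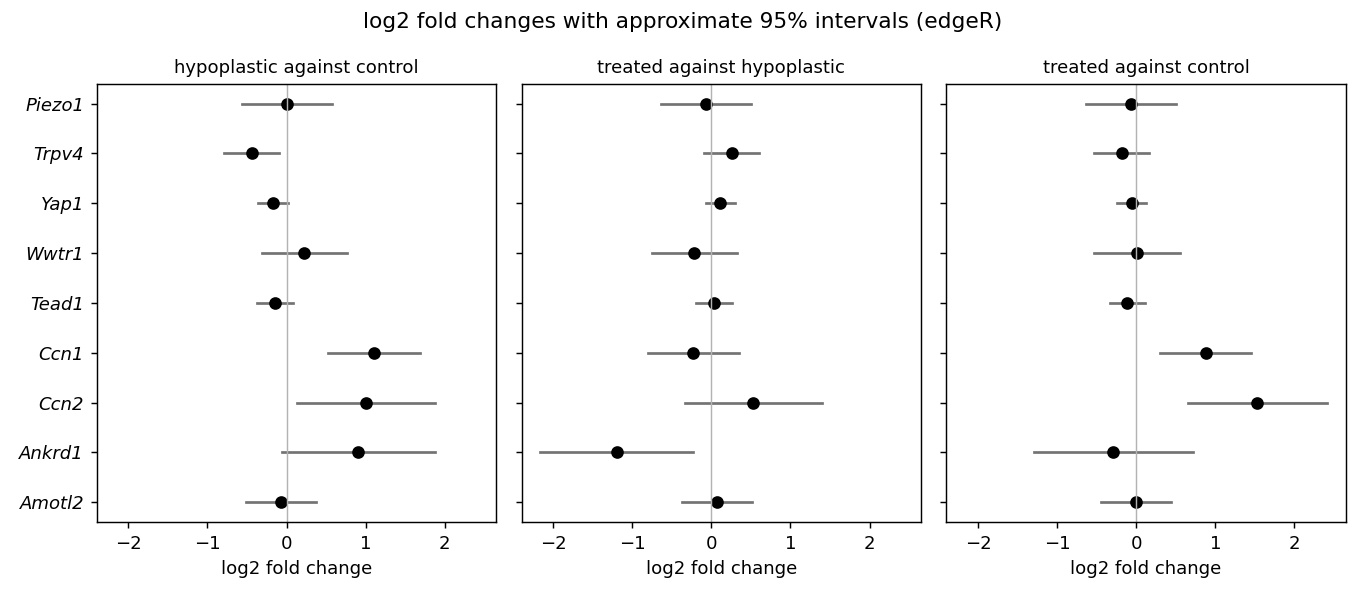
log2 fold changes of the 9 members in the 3 comparisons (points) with approximate 95% intervals from edgeR (lines). The intervals of Ccn1 and Ccn2 lie above 0 against control in both panels, whereas those of Yap1, Wwtr1, Tead1, Piezo1 and Amotl2 include 0 in all 3 panels.

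Ankrd1, which encodes a muscle ankyrin repeat protein abundant in heart, was low, with 67 to 307 estimated counts per library against 928.0 or more for each other member. Control libraries were at 1.55, 2.34 and 1.42 CPM, hypoplastic libraries at 3.61, 5.01 and 1.21 CPM, and treated libraries at 1.53, 1.40 and 1.38 CPM. Hypoplastic libraries 1 and 2 held the highest values of the 9 and hypoplastic library 3 the lowest. The log2 change was 0.91 in hypoplastic against control lungs (SE 0.431, 95% interval -0.06 to 1.88, edgeR adjusted p 0.426) and -1.20 in treated against hypoplastic lungs (SE 0.433, 95% interval -2.17 to -0.23, edgeR adjusted p 0.896). Without hypoplastic library 3 these values were 1.29 and -1.58, and without hypoplastic library 2 they were 0.48 and -0.76. Treated and control lungs differed by -0.29 (log2, SE 0.448, edgeR adjusted p 0.998).

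The sum of heart muscle genes was highest in hypoplastic libraries 1 and 2, as Ankrd1 was, but the order of these 2 was opposite. The summed level of 10 such genes was 27.4 to 53.3 CPM in control, 287.4, 142.1 and 24.9 CPM in hypoplastic libraries 1 to 3, and 29.0 to 38.5 CPM in treated libraries. Of the 10 genes, 8 in hypoplastic library 1 and 9 in library 2 were above every control library, and 0 in library 3. The atrial myosin light chain gene Myl7 was at 37.6, 22.7 and 0.0543 CPM in the hypoplastic libraries, at 2.48, 1.12 and 0 CPM in control libraries and at 0.75 CPM or less in treated libraries. The cardiac troponin gene Tnni3 was at 12.03, 5.94 and 1.86 CPM in the hypoplastic libraries. Their part in the Ankrd1 values was not tested.

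**Figure D4:**
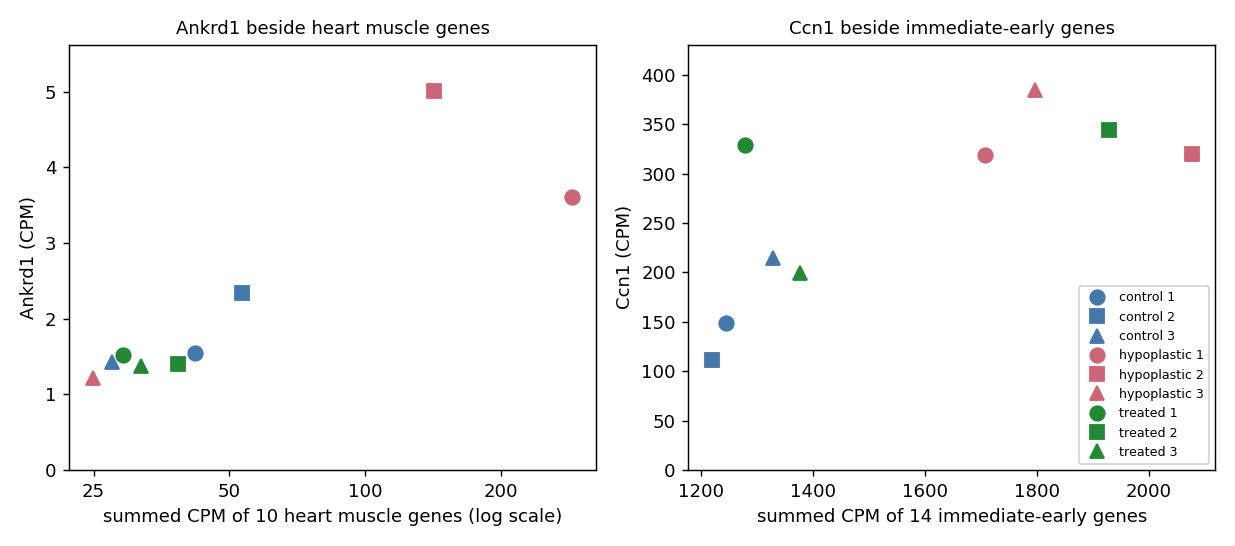
Left, Ankrd1 CPM against the summed CPM of 10 heart muscle genes (log axis); right, Ccn1 CPM against the summed CPM of 14 immediate-early genes; each point is 1 library. Hypoplastic libraries 1 and 2 are high on both axes at left, and at right the control libraries lie at 111.6 to 214.9 CPM of Ccn1.

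Amotl2 encodes an angiomotin that binds YAP and holds it outside the nucleus, and it is itself a YAP target. It was at 226.2, 227.2 and 321.2 CPM in control libraries, 189.4, 277.8 and 268.9 CPM in hypoplastic libraries, and 290.8, 209.4 and 276.0 CPM in treated libraries. The 3 groups overlapped and their means were 258.2, 245.4 and 258.7 CPM. The log2 changes were -0.07 (SE 0.198, 95% interval -0.52 to 0.37) in hypoplastic against control lungs, 0.08 (SE 0.198) in treated against hypoplastic and 0.0028 (SE 0.198) in treated against control lungs. Its values did not separate the groups as those of Ccn1 and Ccn2 did, and the difference between the genes was not tested.

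Of 15 further genes of a common YAP and TAZ target signature, 12 were tested, and edgeR called 0 in each comparison. In hypoplastic against control lungs 8 were higher and 4 lower in log2 change, with a median of 0.15, and -0.0183 without hypoplastic library 2. Of these, 2 had an unadjusted p under 0.05 upwards (6.67% of all genes) and 3 downwards (5.69%). Those of smallest p went in opposite directions: Dock5, a guanine nucleotide exchange factor for Rac, at -0.53 (SE 0.187, edgeR adjusted p 0.341) and -0.29 without control library 2, and the kinase gene Nuak2 at 0.31 (SE 0.123, edgeR adjusted p 0.369). The median was -0.05 in treated against hypoplastic lungs, with Fjx1 at 0.44 (SE 0.147, edgeR adjusted p 0.859) and Crim1 at -0.20 (SE 0.131). In treated against control lungs it was 0.11, with Myof, a membrane repair gene, at -0.52 (SE 0.246; -0.13 without control library 2) and Nuak2 at 0.22 (SE 0.123).

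The upstream Hippo genes lay near 0. Of 21 listed, 17 were tested, which include the kinases and their scaffolds but no angiomotin. Of the 17, 9 were higher and 8 lower in hypoplastic against control lungs, with a median of 0.0186 and 0 called. Limd1, an inhibitor of the LATS kinases, had the smallest p there, at -0.25 (SE 0.0978, edgeR adjusted p 0.369), followed by its relative Ajuba at -0.26 (SE 0.142). The median was 0.04 in treated against hypoplastic lungs, with Nf2, an activator of the kinases, at 0.30 (SE 0.143) and Limd1 at 0.19 (SE 0.0978). It was 0.05 in treated against control lungs, where Ajuba at -0.16 (SE 0.142) and Wwc2 at -0.17 (SE 0.164) came first. Of 7 further TEAD factors and Vestigial-like partners, 3 were tested and 0 called. Tead2 was at 0.30 (SE 0.219) and Vgll4 at 0.0191 (SE 0.0905) in hypoplastic against control lungs. Tead3 and Vgll4 were at -0.06 (SE 0.139) and -0.02 (SE 0.0904) in treated against hypoplastic lungs, and Tead2 and Tead3 at 0.24 (SE 0.219) and -0.06 (SE 0.139) in treated against control lungs.

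Among 13 other channels linked to stretch, 7 were tested and 0 called. Trpc6, a calcium-permeable channel of smooth muscle, was at 1.06, 0.285 and 1.23 CPM in control, 1.43, 3.28 and 1.92 CPM in hypoplastic and 1.18, 1.46 and 1.37 CPM in treated libraries. Each hypoplastic library was above each control library, with a log2 change of 1.33 (SE 0.455, edgeR adjusted p 0.334), and 0.92 without hypoplastic library 2. Trpc6 was at -0.72 (SE 0.430) in treated against hypoplastic lungs, and -0.32 without hypoplastic library 2, and in treated against control lungs at 0.60 (SE 0.464). Its relative Trpc1 was at 0.36 (SE 0.200) in hypoplastic against control and -0.43 (SE 0.199) in treated against hypoplastic lungs. Pkd1, the polycystin-1 gene, was at -0.08 (SE 0.124) in treated against control lungs. The median of the 7 was 0.20, -0.08 and -0.0017 in the 3 comparisons. The values 0.20 and -0.08 were those of Kcnk2, at 0.75 CPM on average. With a filter of 1 CPM in 3 libraries the first median was -0.0048.

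SRF and its MRTF co-activators sense actin dynamics and share several targets with YAP. Of 16 genes of this group 13 were tested and 0 called, with medians of 0.11, -0.03 and 0.07. Myl9 and Cnn1, both contractile genes of smooth muscle, were at 0.63 (SE 0.273) and 0.91 (SE 0.502) in hypoplastic against control lungs, and at 0.37 and 0.27 without hypoplastic library 1. Srf was at 0.30 (SE 0.131) in treated against hypoplastic lungs, where each treated library was above each hypoplastic library, and Cnn1 at -0.93 (SE 0.501), or -0.29 without hypoplastic library 1. In treated against control lungs Srf was at 0.20 (SE 0.131) and Myocd at 0.30 (SE 0.215). The summed level of 6 smooth muscle markers was 165.2 to 311.7 CPM in control, 304.4 to 513.9 CPM in hypoplastic and 181.1 to 381.1 CPM in treated libraries, and its part in these values was not tested.

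The immediate-early genes, which cells induce quickly after growth factors and other stimuli, were higher in hypoplastic than in control lungs in log2 change, as Ccn1 and Ccn2 were. All 14 were tested, and in hypoplastic against control lungs all 14 had a log2 change above 0, against 51.9% of all genes, with a median of 0.74 and 0 called by edgeR. An unadjusted p under 0.05 upwards was found for 9, against 6.67% of all genes, and 9 did not overlap upwards, against 7.68%. This list was chosen with earlier results of these data known, so its counts in all comparisons are a description and not independent evidence. Egr1, a zinc finger transcription factor, was at 17.6, 21.3 and 17.2 CPM in control, 58.4, 54.6 and 32.1 CPM in hypoplastic and 33.8, 75.6 and 33.1 CPM in treated libraries. Every library of both hypoplastic groups was above every control library, as for Ccn2. Its log2 change was 1.37 (SE 0.336, edgeR adjusted p 0.317, DESeq2 adjusted p 0.00648) in hypoplastic and 1.34 (SE 0.336, edgeR adjusted p 0.998, DESeq2 adjusted p 0.0376) in treated against control lungs. Fos, an AP-1 subunit, was at 0.96 (SE 0.241, edgeR adjusted p 0.317, DESeq2 adjusted p 0.0194) and 0.70 (SE 0.240, edgeR adjusted p 0.998).

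In treated against hypoplastic lungs all 14 immediate-early genes had a log2 change below 0, where 48.1% of all genes were above 0. Their median was -0.25, and -0.53 without treated library 2, while the log2 change of Ccn2 was above 0. An unadjusted edgeR p under 0.05 downwards was found for 1, against 3.56% of all genes, and 1 did not overlap downwards, against 4.74%. The hypoplastic libraries are those of the comparison with control, so the directions are not independent. Dusp1 was at -0.43 (SE 0.159, edgeR adjusted p 0.896) and Junb at -0.45 (SE 0.236). The median was 0.32 in treated against control lungs, with 11 higher and 3 lower, where 50.6% of all genes were above 0. Without treated library 2 that median was 0.11, with Egr1 at 0.84 and Fos at 0.35. The summed level of the 14 genes was 1220 to 1328 CPM in control, 1708 to 2076 CPM in hypoplastic, and 1278, 1929 and 1377 CPM in treated libraries 1 to 3. Treated library 2 held the highest Ccn2 and Ccn1 of its group and the highest immediate-early sum. Treated library 1 had 328.9 CPM of Ccn1 and 111.1 CPM of Ccn2, above every hypoplastic library for Ccn2, with an immediate-early sum within the control range. Of the 14 genes, 4 were nevertheless above every control library in treated library 1, Egr1 and Fos among them. In treated libraries 2 and 3 these were 10 and 5 genes. The part of the immediate-early genes in the values of Ccn1 and Ccn2 was not tested.

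**Figure D5:**
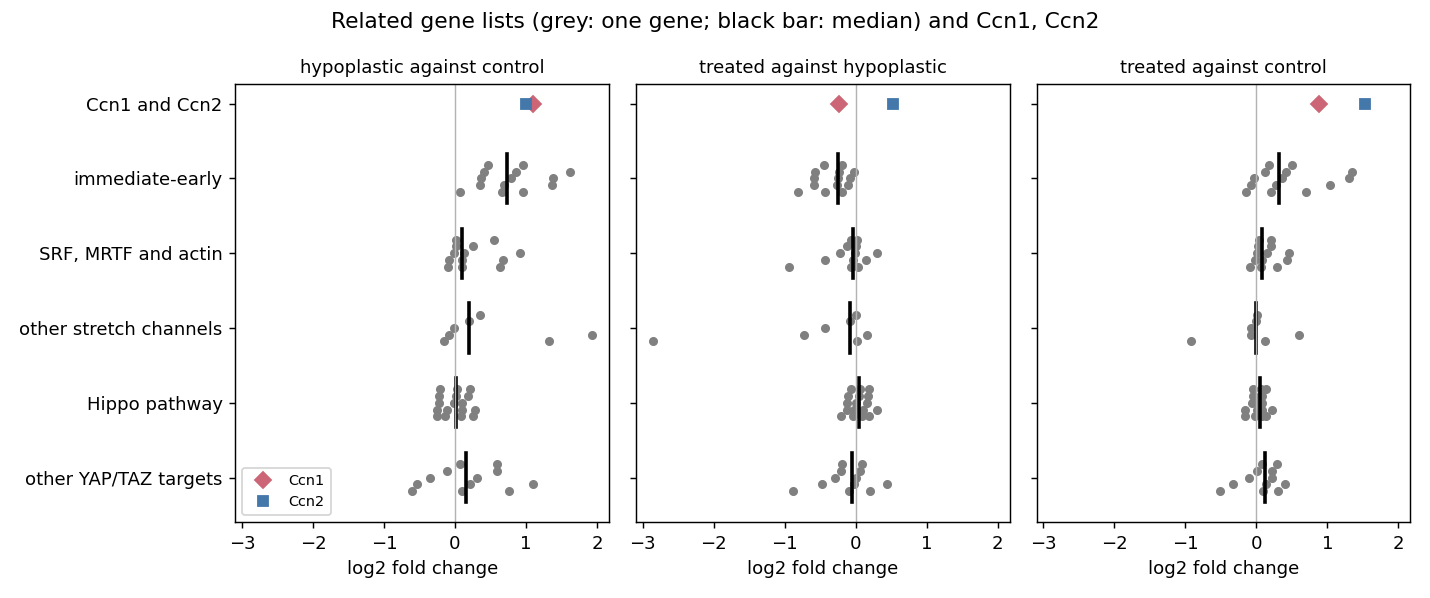
log2 fold changes of the tested genes of 5 related lists (grey points, with the list median as a black bar) and of Ccn1 and Ccn2 (coloured points) in the 3 comparisons. The immediate-early genes lie above 0 in hypoplastic against control lungs, with a median of 0.74, while the Hippo pathway genes centre near 0; the outlying channel at -2.86 is Tmem63c, at 0.0951 CPM on average.

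Of the other CCN genes, 2 of 4 were tested and 0 called. Ccn3, a family member described as opposing Ccn2 in several tissues, was at 17.6, 33.5 and 22.5 CPM in control, 12.5, 17.9 and 11.8 CPM in hypoplastic and 19.8, 13.97 and 14.9 CPM in treated libraries. The groups overlapped. Its log2 change was -0.80 (SE 0.259, edgeR adjusted p 0.325) in hypoplastic against control lungs, and -0.51 without control library 2. It was 0.20 (SE 0.259) in treated against hypoplastic and -0.60 (SE 0.258) in treated against control lungs.

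Mesenchymal and neutrophil markers also differed between libraries. The sum of 6 mesenchymal markers was 1934 CPM in control library 2, the lowest, and 14760 CPM in hypoplastic library 2, the highest, which were also the lowest and highest libraries for Trpc6, while Ccn2 was lowest in the former. Most of the sum was collagen RNA, with Col1a1, Col1a2 and Col3a1 at 5816, 3230 and 5268 CPM in hypoplastic library 2. In control library 2 and hypoplastic library 2, Pdgfra was at 35.6 and 333.1 CPM and Tbx4 at 47.5 and 91.3 CPM. Tcf21 was nearly equal there, at 22.3 and 21.8 CPM. The sum of 6 neutrophil markers was 5.64 to 10.2 CPM in control, 51.9 to 87.9 CPM in hypoplastic and 17.3 to 74.9 CPM in treated libraries. Most of it was S100a8 and S100a9, at 39.0 and 36.1 CPM in hypoplastic library 1. All 5 markers tested were higher in hypoplastic than in control libraries without overlap, against 7.68% of all genes. For Elane the closest values were 0.0915 and 0.0766 CPM, and Ltf was at 0.0762 CPM or less throughout. The part of the mesenchymal and neutrophil markers in the values of Ccn1 and Ccn2 was not tested.

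Patterns over the 9 libraries were compared by Pearson's r of log2 CPM, as a description. The points share library composition, and with 9 libraries 1 or 2 of them can set an r. Of the 36 pairs of members, 4 had an r above 0.7 and 3 below -0.7. Ccn1 and Ccn2 had an r of 0.82, Trpv4 and Yap1 0.85, Trpv4 and Tead1 0.74, and Piezo1 and Amotl2 0.74. Without control library 2 the r of Trpv4 and Tead1 was 0.41. Wwtr1 and Tead1, partners in the same complex, had an r of -0.90, and -0.69 without control library 2. Trpv4 had an r of -0.80 with Ccn1 and -0.75 with Wwtr1, the latter -0.41 without control library 2. Yap1 and Ccn2, and Yap1 and Ccn1, had values of -0.54 and -0.66. Taken as deviations from the group means, these 2 values were -0.56 and -0.12.

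Among 11343 other genes at 1 CPM or more on average, the 2 closest to each member were sought. For Ccn2 they were Edn1, the endothelin-1 gene, with an r of 0.97 (0.94 or more without any 1 library), and Usf2 with 0.91. Edn1 was at 6.34, 3.799 and 6.63 CPM in control, 8.34, 12.9 and 8.24 CPM in hypoplastic and 9.52, 15.8 and 6.61 CPM in treated libraries. Like Ccn2 it was lowest in control library 2 and highest in treated library 2, but treated library 3 was within the control range. For Ccn1 they were the kinase gene Map3k13 (0.95) and RT1-T24-1 (0.94), which belongs to a family of similar MHC class I genes and is uncertain. For Ankrd1 they were Penk (0.97) and Ntrk3 (0.95), for Wwtr1 Ncam1 (0.99) and Pcdh18 (0.98), and for Tead1 Uso1 (0.96) and Abhd2 (0.95). For Yap1 they were the histone gene Hist1h2bo (0.97), one of many similar copies, and Uvssa (0.95). For Trpv4, Kifbp (0.97) is given. Piezo1 was closest to Tefm (0.91) and Vps37b (0.90), and Amotl2 to Fam53a (0.98) and Mgat2 (0.98). An r above 0.9 was reached by 165 genes for Wwtr1, 55 for Trpv4, 49 for Tead1, 29 for Amotl2, 16 for Yap1 and 13 for Ankrd1. For Ccn1, Ccn2 and Piezo1 these were 6, 5 and 2 genes. The named genes are thus the first of many for several members. Without control library 2 the r of Tead1 and Abhd2 was 0.86.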

How the data were processed

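RNA of 9 fetal rat lungs was sequenced after ribosomal depletion. The authors deposited 1 table of estimated counts for 17465 genes by NCBI Gene ID, with fractional values and without normalization between libraries. The submitters' processing notes list the build rn7 and DESeq2 without a role. The sources used here do not give the aligner, counter or annotation, so values of near-identical or overlapping genes are uncertain. Symbols came from a RefSeq table (GRCr8, 99.1% of IDs matched).

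Estimated counts were rounded to whole numbers. edgeR 4.0.16 in R 4.3.3 was run with filterByExpr (12966 genes kept), TMM factors, glmQLFit with legacy=FALSE and 1 term per group over all 9 libraries. P-values were adjusted by Benjamini-Hochberg over all genes tested. Standard errors were the log2 change divided by the square root of F, and 95% intervals follow from them. DESeq2 1.42.0 and limma 3.58.1 (voom) were alternatives. CPM use TMM-scaled library sizes, and log2 CPM a prior count of 2. The edgeR step was tested on simulated data.

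The members, lists and tests were chosen with earlier results of these data known. Named were the members, from each related list the 2 genes of smallest p with a mean of at least 1 CPM where none was called, the 2 genes with the highest r to each member, and Tnni3 and Myl7. Of these, 1 gene that this rule names for Trpv4 is not reported here. Nkx2-1, Xist, Ddx3y and Eif2s3y were used to check tissue and sex. Single genes of the epithelial and mesenchymal marker lists are named to show what the sums hold. Marker lists of endothelium, mesothelium, epithelium, macrophages, blood, liver, thymus, skeletal muscle and neuroendocrine cells were also computed. Summed over the list, endothelial markers were at 704.6 to 948.9 CPM, mesothelial markers at 181.4 to 320.6 CPM and neuroendocrine markers at 15.1 to 30.9 CPM over the 9 libraries. Macrophage markers were at 23.3 to 87.8 CPM in control, 65.2 to 206.6 CPM in hypoplastic and 58.9 to 168.7 CPM in treated libraries. Blood markers were at 3113 to 10633 CPM, skeletal muscle markers at 9.13 to 17.0 CPM, liver markers at 6.08 CPM or less and thymus markers at 5.29 CPM or less.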

Additional observations from a re-analysis of the deposited data

How the results depend on the processing

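The number of libraries, 3 a group, limits the precision, and low counts add to this for Ankrd1, Trpc6 and other genes near or under 1 CPM. A gene's log2 change counted as unchanged if it kept its direction and side of the threshold. List medians, correlations and counts were judged by the size of their shift. A median could therefore change sign and count as unchanged. The Hippo median in treated against hypoplastic lungs, 0.04, was -0.0836 without treated library 3. Under the alternatives other than leaving out a library, 798 values counted as unchanged, 4 reversed, 12 newly passed a threshold or rose in count, and 5 moved. Leaving out 1 library, 905 counted as unchanged, 30 reversed, 6 newly passed or rose in count, 2 lost a call and 2 moved. DESeq2 called 202 genes in hypoplastic against control lungs, 1 of them a member (Ccn1), 17 genes in treated against hypoplastic lungs, and 14 in treated against control lungs, 1 of them a member (Ccn2). A fit on only the 6 libraries compared called 4 genes in hypoplastic against control lungs, and limma voom gave a log2 change of -0.0493 for Piezo1 there. With sex in the model, Piezo1 was at -0.0399 there and Amotl2 at -0.0100 in treated against control lungs. A filter of 1 CPM in 3 libraries gave a median of -0.0048 for the other stretch-linked channels in hypoplastic against control lungs. Such a filter drops low genes, and Kcnk2 and Tmem63c averaged 0.75 and 0.0951 CPM. Their log2 changes there were 0.20 and 1.93 in the main fit. The cause of the other shifts was not tested.

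The main fit did not pair samples by replicate number. Deviations from the group mean correlated at -0.282 to 0.227 between same-numbered libraries of different groups (3 of 9 pairs above 0.1). Between differently numbered libraries they correlated at -0.439 to 0.389 (7 of 18 pairs above 0.1). With 3 libraries a group, these values cannot exclude a pairing by litter or batch. With the replicate number as a block, 2 genes and 0 members were called in hypoplastic against control lungs, and Piezo1 was at -0.0115.

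Leaving out 1 library at a time, 0 members were called in any comparison. Genes called ran from 0 to 45 in hypoplastic against control lungs (45 without hypoplastic library 3, 0 without control library 1 or 3), from 0 to 44 in treated against hypoplastic lungs (44 without hypoplastic library 3) and from 0 to 1 in treated against control lungs. Log2 changes in hypoplastic against control lungs ran from -0.26 to 0.23 for Piezo1, -0.0341 to 0.46 for Wwtr1, -0.17 to 0.11 for Amotl2 and -0.0218 to 0.0660 for Vgll4, and the median of the channels from -0.0168 to 0.36. In treated against hypoplastic lungs they ran from -0.32 to 0.19 for Piezo1, -0.0235 to 0.0747 for Tead1, -0.0787 to 0.21 for Amotl2, -0.13 to 0.0152 for Tead3 and -0.0656 to 0.0165 for Vgll4, and the immediate-early median from -0.53 to -0.17. Between treated and control lungs they ran from -0.32 to 0.0643 for Piezo1, -0.25 to 0.24 for Wwtr1, -0.0893 to 0.19 for Amotl2, -0.29 to 0.0340 for Wwc2 and -0.19 to 0.0372 for Tead3.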
